A study of Mus musculus with 20 samples.

Results

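Cytosolic ribosomal protein genes encode the proteins of the ribosomes that work outside mitochondria. They were found by symbol (Rpl or Rps with a number and an optional letter, Rplp0 to Rplp2, and Rpsa, without symbols ending in -ps), and 84 of the 27998 genes of the single-cell tables matched, 52 of the large subunit and 32 of the small subunit. One of the 52, Rpl6l, is annotated as a processed pseudogene. The rule uses symbols only and no measured value. All 84 had UMIs (counted RNA molecules) in each of the 3 single-cell experiments, and those counts are described here across signalling pathways and start states.

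The cells were mouse embryonic stem cells (mESCs), pluripotent cells from a male 129P2/OlaHsd embryo. Those of the single-cell experiments had been grown with LIF, GSK3 inhibitor XV and UO126 and were then withdrawn from these. They passed through a serum-free and a low-serum differentiation medium before 24 h of combined treatment, which the control wells named below did not receive. Barcodelets, short RNA tags transfected into each well, marked the treatment of each cell in a pooled 10X Chromium library. The germ layer experiment crossed plus and minus levels of 5 pathways in 32 conditions of 1 population each. Its plus compounds were RA, GSK3iXV (Wnt), ActivinA (Tgfb), Bmp4 and Fgf2, and its minus compounds were CD 2665, IWR1, A8301, Dorsomorphin and UO126, in the same order. RA is retinoic acid, GSK3iXV switches Wnt signalling on by blocking GSK3, and each minus compound blocks the receptor or a step of its pathway, so minus is inhibition and not absence. The mesendoderm experiment crossed these pathways with Notch and Shh, with 2 wells in each of 64 conditions and 4 in each of 64 others. Assigned cells came from 383 of these wells. Of the wells used below, 192 were Tgfb minus and 108 Tgfb plus. Wells of this experiment were recorded here as a mesendoderm start, and the germ layer conditions as an undirected start. The mixed experiment gave 5 pathways to cells from an undirected start and to cells from a mesendoderm start, whose first 24 h had held Activin A, Fgf2 and GSK3 inhibitor XV with the blockers CD 2665 and Dorsomorphin. Its 16 control wells, 8 of each start, received a start and no combined treatment. Which compounds stood for plus and minus in the other 2 experiments was not taken from any source used here. Each experiment is 1 library. Nothing in the labels says that wells are separate cultures, so p-values measure the spread between wells or conditions of 1 library. Bulk libraries were made of untransfected cells, of cells labelled Barcodelet24h or Barcodelet72h, and of sorted cells labelled Foxa2GFPminus, Foxa2GFPplus or Tdgf1GFPplus.

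Cells that the authors assigned to a population numbered 4350 of 8421 in the germ layer experiment, 2899 of 12781 in the mesendoderm experiment and 4869 of 5944 in the mixed experiment. Populations of at least 5 cells were used, which left 32 of 32, 300 of 383 and 142 of 144. They held 991630 to 3816595, 27701 to 332644 and 101140 to 2119355 UMIs each. The libraries shared 64 to 151 cell barcodes pairwise, at most 1.87% of either library. The 10 pluripotency markers (Pou5f1, Nanog and others) were all detected at a summed median of 508 to 2533 CPM (counts per 1000000) in the groups split by Wnt level. Markers of mesendoderm were all detected too, and of 5 blood markers 1 or 2 were at 0 in each experiment.

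A ribosome needs one copy of nearly every protein, so cells make these proteins in matched amounts. Many of their messenger RNAs begin with a C followed by a run of pyrimidines at the 5′ end, the TOP motif, through which mTOR signalling controls their translation as a group. In embryonic stem cells and early embryos their output follows growth and the rate of cell division, and some members have paralogues used in particular tissues.

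The start sites of 9 members are shown because the members below differ in this motif. Sequences are from RefSeq promoter windows (GRCm38.p6), each 20 bases before and 10 bases from the annotated start, 5′ to 3′ on the coding strand, with the first 5 transcribed bases in capitals. The first 5 lines hold a C at the start followed by 4 pyrimidines, and the last 4 do not. The windows lie at chr3:90213639-90213668 (Rps27, minus strand), chr4:86857358-86857387 (Rps6, minus), chr7:141447631-141447660 (Rplp2, plus), chr11:114668560-114668589 (Rpl38, plus), chr17:33955656-33955685 (Rps18, minus), chr3:28805488-28805517 (Rpl22l1, plus), chr9:66946066-66946095 (Rps27l, plus), chr17:46782647-46782676 (Rpl7l1, minus) and chr12:28635944-28635973 (Rps7, minus).
Rps27: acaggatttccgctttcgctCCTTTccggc
Rps6: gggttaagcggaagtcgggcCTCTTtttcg
Rplp2: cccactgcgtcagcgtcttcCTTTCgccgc
Rpl38: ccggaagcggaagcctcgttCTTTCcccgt
Rps18: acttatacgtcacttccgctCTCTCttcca
Rpl22l1: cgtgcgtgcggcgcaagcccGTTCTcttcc
Rps27l: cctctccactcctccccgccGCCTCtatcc
Rpl7l1: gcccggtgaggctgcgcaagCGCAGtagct
Rps7: gaagagcttccggtttccacCCACCtactt

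Of the 84 members 63 had a promoter window, and 13 of these (20.6%) had such a TOP start, against 3.01% of 27025 genes with a window. An annotated start that is off by 1 base loses the motif, so a missing motif says only that these letters are not at this position. Within the windows of 250 bases before to 50 after the start, CCGGAAG on either strand, the core bound by ETS family factors, was in 26 of 63 members (41.3%) and 9.93% of genes. AAGATGG, which YY1 can bind, was in 10 members (15.9%) and 7.28% of genes, CACGTG, the E-box bound by Myc, in 6 members (9.52%) and 8.09%, and CTTTGA, bound by the Tcf/Lef factors of Wnt signalling, in 4 members (6.35%) and 18.2%.

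The 84 genes took 26.2% of all UMIs of assigned cells in the germ layer experiment, 33.6% in the mesendoderm experiment and 32.1% in the mixed experiment. In single cells the share had a median of 25.5% (5th to 95th percentile 19.4 to 33.2), 34.0% (95th percentile 40.4) and 31.5% (19.7 to 42.7). Over populations it was 26.1% ± 1.60 (SD, n = 32), 33.6% ± 2.01 (n = 300) and 32.4% ± 3.40 (n = 142). The libraries differ in depth and preparation as well as in design, so shares are compared within a library only.

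The share of UMIs in these genes was higher at Wnt plus than at Wnt minus. In the germ layer conditions the share at Wnt minus ranged from 22.9% to 26.3% with a median of 24.9%, and at Wnt plus from 25.9% to 29.3% with a median of 27.2%. The groups overlapped by few conditions, and the lowest 13 of 32 conditions were all Wnt minus. The lowest was RA-Wnt-Tgfb-Bmp-Fgf+ (22.9%, 77 cells) and the highest RA-Wnt+Tgfb-Bmp+Fgf- (29.3%, 131 cells). The mean was 24.8% ± 0.955 (SD, n = 16) at Wnt minus and 27.4% ± 0.977 (n = 16) at Wnt plus.

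Both start states of the mixed experiment had the same direction. From the undirected start the share was 25.7% to 32.9% (median 29.3%, n = 32) at Wnt minus and 26.9% to 38.3% (median 34.3%, n = 30) at Wnt plus. From the mesendoderm start it was 27.0% to 36.1% (median 30.6%, n = 32) and 31.2% to 41.2% (median 35.8%, n = 32). The groups overlapped in both starts, and in the undirected start the median at Wnt plus lay above every well at Wnt minus. In the mesendoderm experiment the medians were 33.0% (n = 152) and 34.2% (n = 148), and the ranges overlapped nearly whole. The control wells, with no combined treatment after their start, had 27.6% to 31.4% (median 29.1%, n = 8) in the undirected start and 30.3% to 34.0% (median 31.7%, n = 8) in the mesendoderm start, near the Wnt minus wells of their own start.

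**Figure D1:**
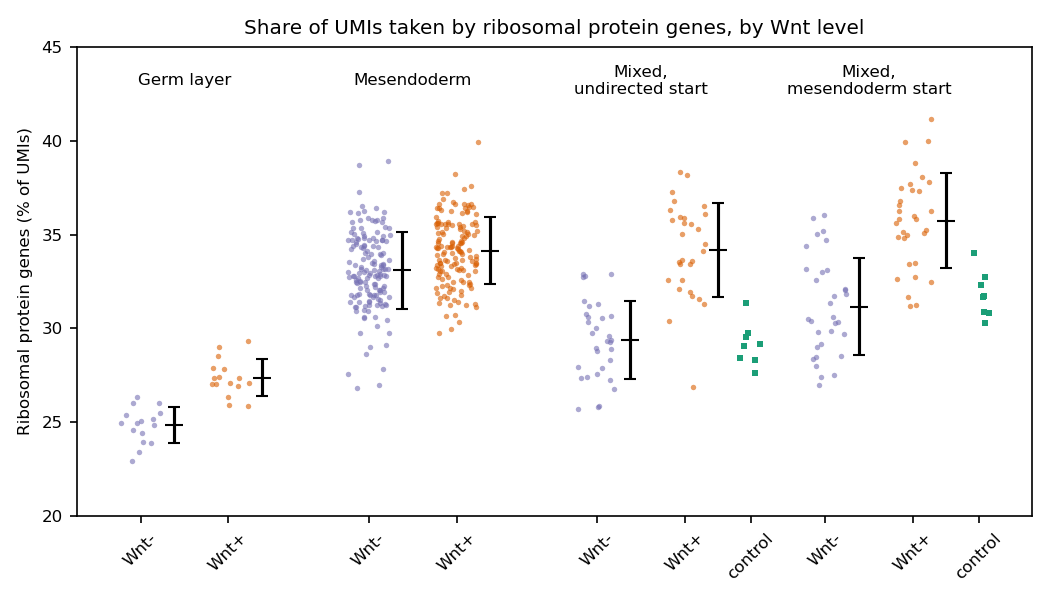
Percent of UMIs in ribosomal protein genes (y axis) in each population, by experiment and Wnt level; circles are populations, squares control wells, black bars mean ± SD. Germ layer means are 24.8% and 27.4%, and the mixed medians are 29.3% and 34.3% in the undirected and 30.6% and 35.8% in the mesendoderm start.

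Other measures moved with Wnt level beside the share. Malat1, a nuclear RNA, took 0.507% of UMIs at Wnt minus and 0.382% at Wnt plus in the germ layer experiment, 0.446% and 0.270% in the undirected start, and 0.416% and 0.279% in the mesendoderm start. The mitochondrial share was 3.49% and 3.45%, 5.56% and 5.79%, and 6.07% and 5.86%. Median cells per well were 30.5 and 14 in the undirected start. Summed pluripotency markers had medians of 1246 and 935 CPM in the germ layer experiment, 2533 and 2262 in the undirected start and 2465 and 1598 in the mesendoderm start. Summed mesendoderm markers had medians of 75.4 and 110, 29.2 and 96.5, and 57.5 and 224 CPM, in the same order. The part of these in the change of the ribosomal protein genes was not tested. The tests below use UMIs summed over cells, and such sums cannot tell a change in cell composition from a change in RNA per cell. In the median cell of a population the share averaged 24.2% at Wnt minus and 26.8% at Wnt plus in the germ layer experiment. It averaged 28.9% and 34.3% in the undirected start and 30.8% and 35.5% in the mesendoderm start, and single cells were not tested.

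Gene by gene, 74 of 83 tested members rose with Wnt in the germ layer experiment and none fell, at an adjusted p under 0.05 in edgeR's quasi-likelihood test over all 10614 genes tested, where 12.1% of genes rose and 11.9% fell. The median change of the members was 0.20 on the log2 scale (1.15-fold), and the median of all genes tested was between -0.0145 and 0.0106 in every pathway and start contrast of the 3 experiments. Scaled on the other genes only, 74 rose. By subunit, 45 of 51 large and 29 of 32 small subunit genes rose, and the median was 0.20 for each. In the undirected start 77 of 82 rose and none fell (background 16.7% and 19.4% of 8791 genes), with a median of 0.37 (1.29-fold). Scaled by library totals, 2 fell there. In the mesendoderm start 79 rose and 1 fell (background 19.9% and 21.2%), with a median of 0.34 (1.26-fold).

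The groups for single members were as follows in the germ layer experiment, in CPM scaled over the tested genes. Rpl22l1, a paralogue of the large subunit protein Rpl22, was at 2349 to 3448 (median 3032) at Wnt minus and 3421 to 4338 (median 3798) at Wnt plus, a log2 change of 0.36 ± 0.04 (SE, adjusted p = 8.739e-09). Its groups touched at their edges. Rpl10a, a large subunit protein of the L1 stalk, was at 1849 to 2771 (median 2506) and 2629 to 3473 (median 2947), a change of 0.32 ± 0.04 (adjusted p = 2.566e-08). Rpl3, which lies near the peptidyl transferase centre, was at 2798 to 4470 (median 3832) and 4085 to 5331 (median 4604), a change of 0.31 ± 0.04 (adjusted p = 2.7e-08). Both overlapped over a few conditions. Rps7, a small subunit protein, was at 1177 to 1750 (median 1571) and 1635 to 2099 (median 1832), 0.31 ± 0.03 (adjusted p = 5.787e-09), and Rps18 of the small subunit head rose by 0.29 ± 0.03 (adjusted p = 3.378e-09).

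In 9 members, Rpl4, Rpl22, Rpl38, Rplp0, Rplp2, Rps3, Rps16, Rps24 and Rps25, every Wnt plus condition lay above every Wnt minus condition, 16 against 16. Of all 10614 genes tested 0.226% had no overlap in either direction. Rplp0, the base of the stalk that recruits elongation factors, was at 1918 to 2262 (median 2141) and 2275 to 2612 (median 2401). Its partner Rplp2 was at 2071 to 2426 (median 2263) and 2502 to 2839 (median 2691). The changes were 0.19 ± 0.02 for Rplp0 (adjusted p = 3.672e-09) and 0.24 ± 0.02 for Rplp2 (adjusted p = 2.807e-10). Rpl38, known from mouse mutants with skeletal patterning defects, was at 2140 to 2437 (median 2281) and 2508 to 2989 (median 2636), a change of 0.21 ± 0.02 (adjusted p = 9.435e-10). The changes of Rplp0, Rplp2 and Rpl38 were near that of the median member (0.20). Their SE of 0.02 was below the 0.03 or 0.04 of the members with the largest changes.

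Rpsa, the small subunit protein also known as the laminin receptor, rose by 0.18 ± 0.02 (adjusted p = 8.739e-09), from a median of 3636 to 4086 CPM. Rps6, the target of S6 kinase, rose by 0.26 ± 0.03 (adjusted p = 1.233e-09), from a median of 4034 to 4743 CPM.

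Some members did not follow. Rps27l, a paralogue of Rps27 known as a p53 target, was at 3092 to 4369 (median 3593) at Wnt minus and 3181 to 4085 (median 3654) at Wnt plus in the germ layer experiment, a change of 0.02 ± 0.03 (adjusted p = 0.6359). Rpl7l1, a paralogue of Rpl7, was at 115 to 184 (median 152) and 107 to 185 (median 146), a change of 0.01 ± 0.05 (adjusted p = 0.9314). The groups of both overlapped over nearly their whole range. Rpl7l1 was the 1 member that fell with Wnt from the mesendoderm start, from a median of 121 to 106 CPM, by 0.19 ± 0.05 on the log2 scale (adjusted p = 0.001393). Rps27l rose there by 0.16 ± 0.03 (adjusted p = 1.375e-05), less than the median member. It rose by 0.09 ± 0.03 (adjusted p = 0.01886) from the undirected start, a value which turned to -0.05 when library totals were used for scaling.

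Rpl22l1 from the undirected start was at 2814 to 4015 CPM (median 3302) at Wnt minus and 2998 to 7412 (median 4976) at Wnt plus, the largest change of a member there (0.61 ± 0.04, adjusted p = 1.385e-27). Rpl3 rose by 0.55 ± 0.04 (adjusted p = 4.178e-25) and Rps7 by 0.52 ± 0.04 (adjusted p = 4.806e-23). From the mesendoderm start Rpl22l1 was at 3464 to 5146 (median 4171) and 4130 to 7654 (median 5771), a change of 0.47 ± 0.04 (adjusted p = 2.377e-20), followed by Rpl3 (0.46 ± 0.04, adjusted p = 1.721e-20) and Rpl10a (0.45 ± 0.05, adjusted p = 6.38e-16). The wells overlapped in each. The difference of the Wnt change between starts passed edgeR's test for 0 of 82 members (3 at an unadjusted p under 0.05, 0 by DESeq2), where 7.77% of genes passed. For Fgf and Tgfb it also passed for 0 (1 each at an unadjusted p under 0.05, 0 by DESeq2), where 1.47% and 0% of genes passed.

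The order of the members by Wnt change was shared by some experiments. Across 82 members the germ layer Wnt changes and those of the undirected start had a Spearman correlation of 0.794, a description over genes that share libraries and reads. For 80 members the germ layer and mesendoderm experiments, which differ in start as well as in library, gave 0.105. The mesendoderm experiment and the mesendoderm start of the mixed experiment gave 0.288. The mesendoderm experiment had 49 of 80 members that rose with Wnt and 1 that fell (background 19.9% and 19.6% of 2328 genes), with a median of 0.05. Rplp0 led, from a median of 2188 (1650 to 2816) to 2386 (1659 to 3017) CPM, a change of 0.13 ± 0.02 (adjusted p = 1.242e-10), followed by Rps20 (0.11 ± 0.02, adjusted p = 5.266e-08) and Rpl12 (0.10 ± 0.02, adjusted p = 1.888e-07). Rps27l fell by 0.05 ± 0.02 (adjusted p = 0.03585), and Rpl22l1 had 0.05 ± 0.03 (adjusted p = 0.1068). With only the 98 wells of at least 10 cells, 5 members rose.

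**Figure D2:**
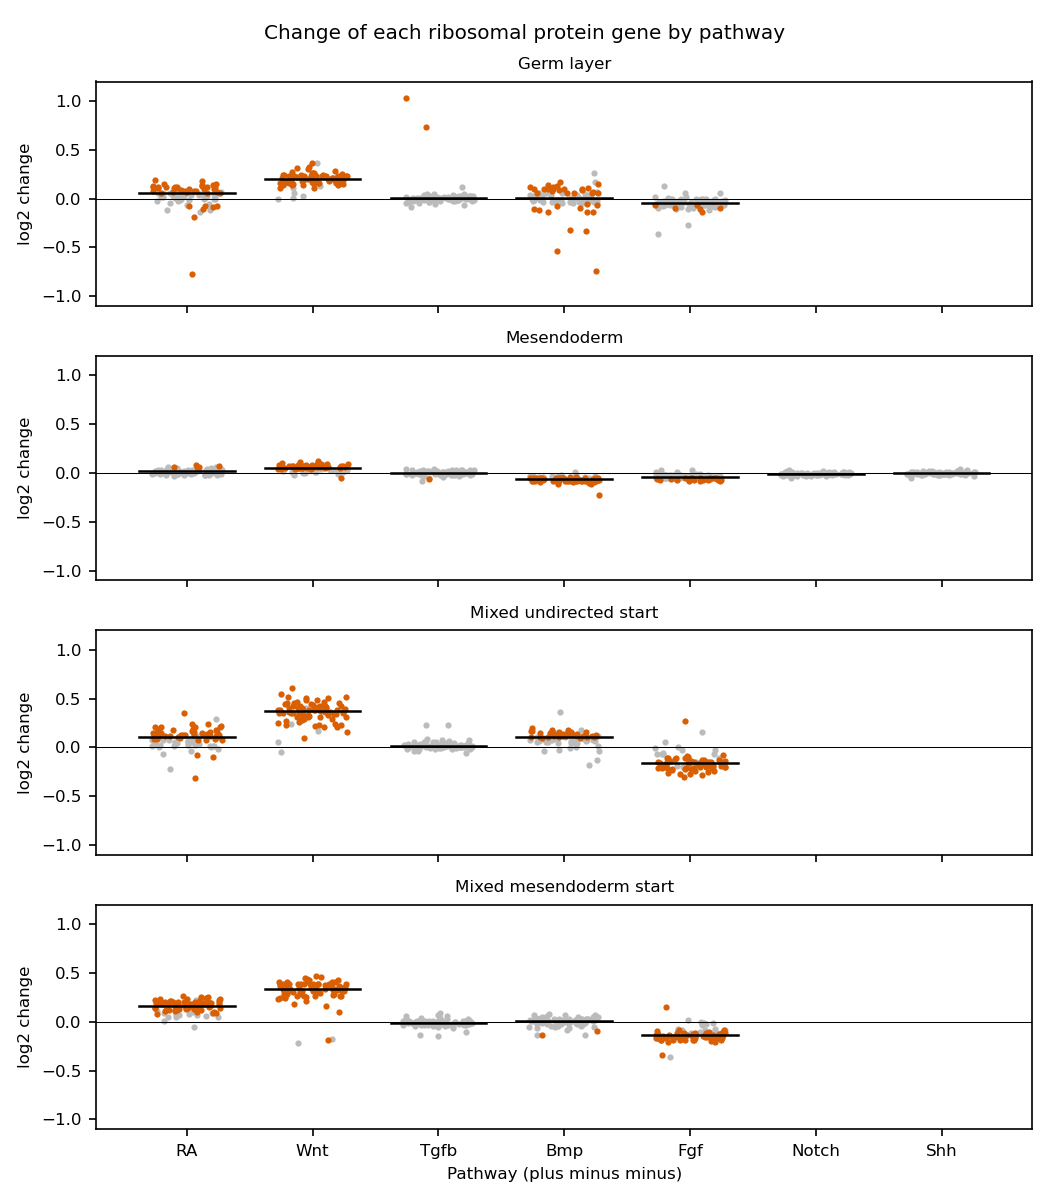
Log2 change (plus minus minus, y axis) of each member for each pathway (x axis) in the 4 settings; orange points have an adjusted p under 0.05, grey points do not, and black lines are medians. The Wnt medians are 0.20, 0.05, 0.37 and 0.34, and Notch and Shh were given in the mesendoderm experiment only.

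Members with a TOP start had slightly higher median Wnt changes than those without, over ranges that overlapped, and the difference was not tested. In the germ layer experiment the 13 with it had changes of 0.17 to 0.29 (median 0.23) and the 49 tested without it -0.01 to 0.36 (median 0.19). From the undirected start the medians were 0.41 and 0.35, and from the mesendoderm start 0.37 and 0.32. With Fgf from the undirected start they were -0.20 and -0.15. Rpl22l1 and Rps7, 2 of the members that rose most, have no TOP start in the windows printed above, nor do Rps27l and Rpl7l1.

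In the paralogue pair Rpl22 and Rpl22l1 the share of Rpl22l1 was higher at Wnt plus in the germ layer and mixed experiments and nearly equal in the mesendoderm experiment. In the germ layer experiment Rpl22l1 made up 75.4% ± 2.17 (SD, n = 16) of the UMIs of the pair at Wnt minus and 77.4% ± 1.42 (n = 16) at Wnt plus. It made up 75.5% ± 1.97 (n = 32) and 78.1% ± 2.28 (n = 30) from the undirected start, and 78.4% ± 1.64 and 79.8% ± 1.82 (n = 32 each) from the mesendoderm start. In the mesendoderm experiment the means were 83.7% ± 3.33 (n = 152) and 84.0% ± 2.69 (n = 148). These groups overlapped, and the ratio itself was not tested. Rpl22 rose by 0.20 ± 0.02 (adjusted p = 1.878e-08), 0.38 ± 0.04 (adjusted p = 2.646e-17) and 0.34 ± 0.04 (adjusted p = 5.704e-16) in the same order. In the control wells the share of Rpl22l1 was 72.4% to 77.4% in the undirected start and 77.5% to 78.8% in the mesendoderm start, with no overlap.

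Most members were lower at Fgf plus in the mixed experiment. Among wells of the undirected start 64 of 82 fell and 1 rose (background 6.42% fell and 6.85% rose), with a median change of -0.16. From the mesendoderm start 64 fell and 1 rose (background 6.44% and 7.12%), with a median of -0.14. Rpl10a was at 2187 to 5505 CPM (median 3744) at Fgf minus and 1999 to 4576 (median 3045) at Fgf plus from the undirected start, and it fell by 0.31 ± 0.05 (adjusted p = 4.091e-07). Rpl3 fell by 0.28 ± 0.04 (adjusted p = 5.366e-08) and Rps15a by 0.28 ± 0.05 (adjusted p = 1.147e-06). The groups of Rpl10a overlapped widely. Summed mesendoderm markers had medians of 36.0 CPM at Fgf minus and 52.4 at Fgf plus in the undirected start and 101 and 132 in the mesendoderm start. Their part was not tested.

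The 1 member that rose with Fgf was Rpl7l1 in both starts. In undirected wells it was at 71.5 to 140 CPM (median 103) at Fgf minus and 79.4 to 176 (median 133) at Fgf plus, a change of 0.27 ± 0.06 (adjusted p = 0.0006517). From the mesendoderm start its change was 0.15 ± 0.05 (adjusted p = 0.04171). Its germ layer change with Fgf was 0.13 ± 0.05 (adjusted p = 0.0755).

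Among germ layer conditions 6 of 83 members fell with Fgf and none rose (background 3.35% and 4.58%), with a median of -0.04. They included Rpl9 (-0.14 ± 0.04, adjusted p = 0.02665), Rpl15 (-0.11 ± 0.03, adjusted p = 0.03707), Rps4x, an X-linked small subunit gene (-0.10 ± 0.03, adjusted p = 0.03787), Rps19 (-0.09 ± 0.03, adjusted p = 0.02951) and Rpl39 (-0.07 ± 0.02, adjusted p = 0.03374). That count depended on the scaling and the filter, from 0 to 30 over the settings given in the closing section. Of 80 mesendoderm members 23 fell with Fgf and none rose (background 5.5% and 3.78%), with a median of -0.04. Rpl18 fell by 0.08 ± 0.02 (adjusted p = 0.001063). With wells of at least 10 cells none of the 80 fell, and with no filter on low counts none fell and 5 rose.

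Members rose with RA in both starts of the mixed experiment, and fewer passed in the other experiments. In the undirected start 47 rose and 3 fell (background 16.9% and 17.5%), with a median of 0.10, and from the mesendoderm start 67 rose and none fell (background 14.4% and 15.6%), with a median of 0.16. Rps7 was at 1513 to 3551 CPM (median 2197) at RA minus and 1750 to 3477 (median 2648) at RA plus from the mesendoderm start, a change of 0.26 ± 0.04 (adjusted p = 1.628e-08). The ranges of those groups overlapped almost whole. The difference of the RA change between the starts passed for 2 of 82 members, both upward (background 2.45% upward, 3.23% downward), near the background. From the mesendoderm start Rps18 rose by 0.26 ± 0.04 (adjusted p = 6.23e-08) and Rpl3 by 0.25 ± 0.04 (adjusted p = 1.123e-07). Of the 3 that fell in the undirected start 1 was left when scaled on the other genes only. Summed mesendoderm markers had medians of 62.1 CPM at RA minus and 30.1 at RA plus in the undirected and 234 and 87.6 in the mesendoderm start, and pluripotency markers 2648 and 2177, and 2248 and 1817. The part of these in the RA changes was not tested.

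Of the germ layer members 34 of 83 rose with RA and 7 fell (background 14.1% and 13.6%), with a median of 0.05. Rps7 (0.19 ± 0.03, adjusted p = 3.775e-05), Rpl3 (0.18 ± 0.04, adjusted p = 0.0001527), Rpl10a (0.15 ± 0.04, adjusted p = 0.001956), Rps18 (0.15 ± 0.03, adjusted p = 0.0002654) and Rpl15 (0.14 ± 0.03, adjusted p = 0.001477) rose most. Rps27l was at 3558 to 4369 CPM (median 3823) at RA minus and 3092 to 3879 (median 3373) at RA plus, and it fell by 0.18 ± 0.03 (adjusted p = 1.488e-05). Rpl41, Rplp0, Rps28 and Rps29 fell by 0.08 to 0.10. The count of 7 was 4 when scaled on the other genes only or with no filter, and 2 with a depth term. Here summed mesendoderm markers had medians of 158 and 59.8 CPM and pluripotency markers 1321 and 864 at RA minus and plus, and their part was not tested. Among mesendoderm wells 5 of 80 rose with RA and none fell (background 11.6% and 10.3%), led by Rpl15 (0.08 ± 0.03, adjusted p = 0.02549), Rpl31 (0.07 ± 0.02, adjusted p = 0.0007963) and Rpl30 (0.06 ± 0.02, adjusted p = 0.008575).

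With Bmp the direction differed between members and settings. Among germ layer conditions 22 rose and 13 fell (background 21.6% and 21.5%), near the background, with a median of 0.01. Scaled on the other genes only, 32 rose and 11 fell, and with no filter 8 fell. Rps27 (0.18 ± 0.04, adjusted p = 0.0001873), Rpl41 (0.15 ± 0.03, adjusted p = 1.239e-05), Rps19 (0.14 ± 0.03, adjusted p = 6.149e-05), Rps15a (0.13 ± 0.03, adjusted p = 0.0009523) and Rps28 (0.12 ± 0.03, adjusted p = 0.0002165) rose most. Rpl7l1 was at 132 to 185 CPM (median 163) at Bmp minus and 107 to 164 (median 130) at Bmp plus, and it fell by 0.32 ± 0.05 (adjusted p = 9.166e-07). Rps26 was at 850 to 1016 (median 944) and 753 to 928 (median 851), and it fell by 0.14 ± 0.02 (adjusted p = 1.854e-05). Rpl27 fell by 0.33 ± 0.11 (adjusted p = 0.01053) at a level of 8.35 to 21.5 CPM in this library. The other 2 of the 5 largest falls were Rpl10 (-0.14 ± 0.05, adjusted p = 0.03537) and Rpl15 (-0.13 ± 0.03, adjusted p = 0.001213).

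Among undirected wells 40 of 82 rose with Bmp and none fell (background 4.32% and 3.49%), with a median of 0.10. Rpl11, which with Rpl5 binds 5S rRNA and Mdm2, rose by 0.19 ± 0.04 (adjusted p = 0.0008417), Rps10 by 0.18 ± 0.04 (adjusted p = 0.0001749) and Rpl10a by 0.17 ± 0.05 (adjusted p = 0.01151). From the mesendoderm start none rose and 2 fell (background 5.36% each), Rps26 by 0.13 ± 0.03 (adjusted p = 0.0005122) and Rps27l by 0.10 ± 0.03 (adjusted p = 0.0363). The difference of the Bmp change between the starts passed edgeR's test for 0 of 82 members (33 at an unadjusted p under 0.05, 0 by DESeq2), where 0.193% of genes passed. Among mesendoderm wells 63 of 80 fell and none rose (background 15.9% and 13.4%), with a median of -0.07. Rps27l fell most, from 2864 to 5528 CPM (median 4021) at Bmp minus to 2268 to 4424 (median 3443) at Bmp plus, by 0.23 ± 0.02 (adjusted p = 3.57e-21). Rpl38 fell by 0.12 ± 0.02 (adjusted p = 1.284e-07) and Rpl36a by 0.11 ± 0.02 (adjusted p = 4.236e-06). With no filter on low counts 17 members fell, and with wells of at least 10 cells 2 fell.

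Few members passed with Tgfb, Notch or Shh. Among germ layer conditions 2 rose with Tgfb and none fell (background 4.07% and 2.95%), Rpl10l (1.03 ± 0.22, adjusted p = 0.001736) and Rpl39l (0.73 ± 0.23, adjusted p = 0.04269). These are paralogues of Rpl10 and Rpl39 known from male germ cells, named here after their values were seen, since both averaged under 10 CPM. Rpl10l was at 0.864 to 12.4 CPM (median 3.50) at Tgfb minus and 3.58 to 11.0 (median 8.12) at Tgfb plus, groups that overlapped. None of the 82 members passed with Tgfb in either start of the mixed experiment (1 and 2 at an unadjusted p under 0.05 in edgeR, 0 by DESeq2), where 2.45% and 4.55% of genes rose and 1.69% and 2.41% fell. In the mesendoderm experiment Rps26 fell with Tgfb by 0.06 ± 0.02 (adjusted p = 0.014), the only one of 80 (background 5.5% rose, 4.6% fell). None of the 80 passed with Notch (background 0.172% rose, 0.988% fell) or Shh (0.043% and 0%), and none had an unadjusted p under 0.05 in edgeR. By DESeq2 these counts were also 0.

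**Figure D3:**
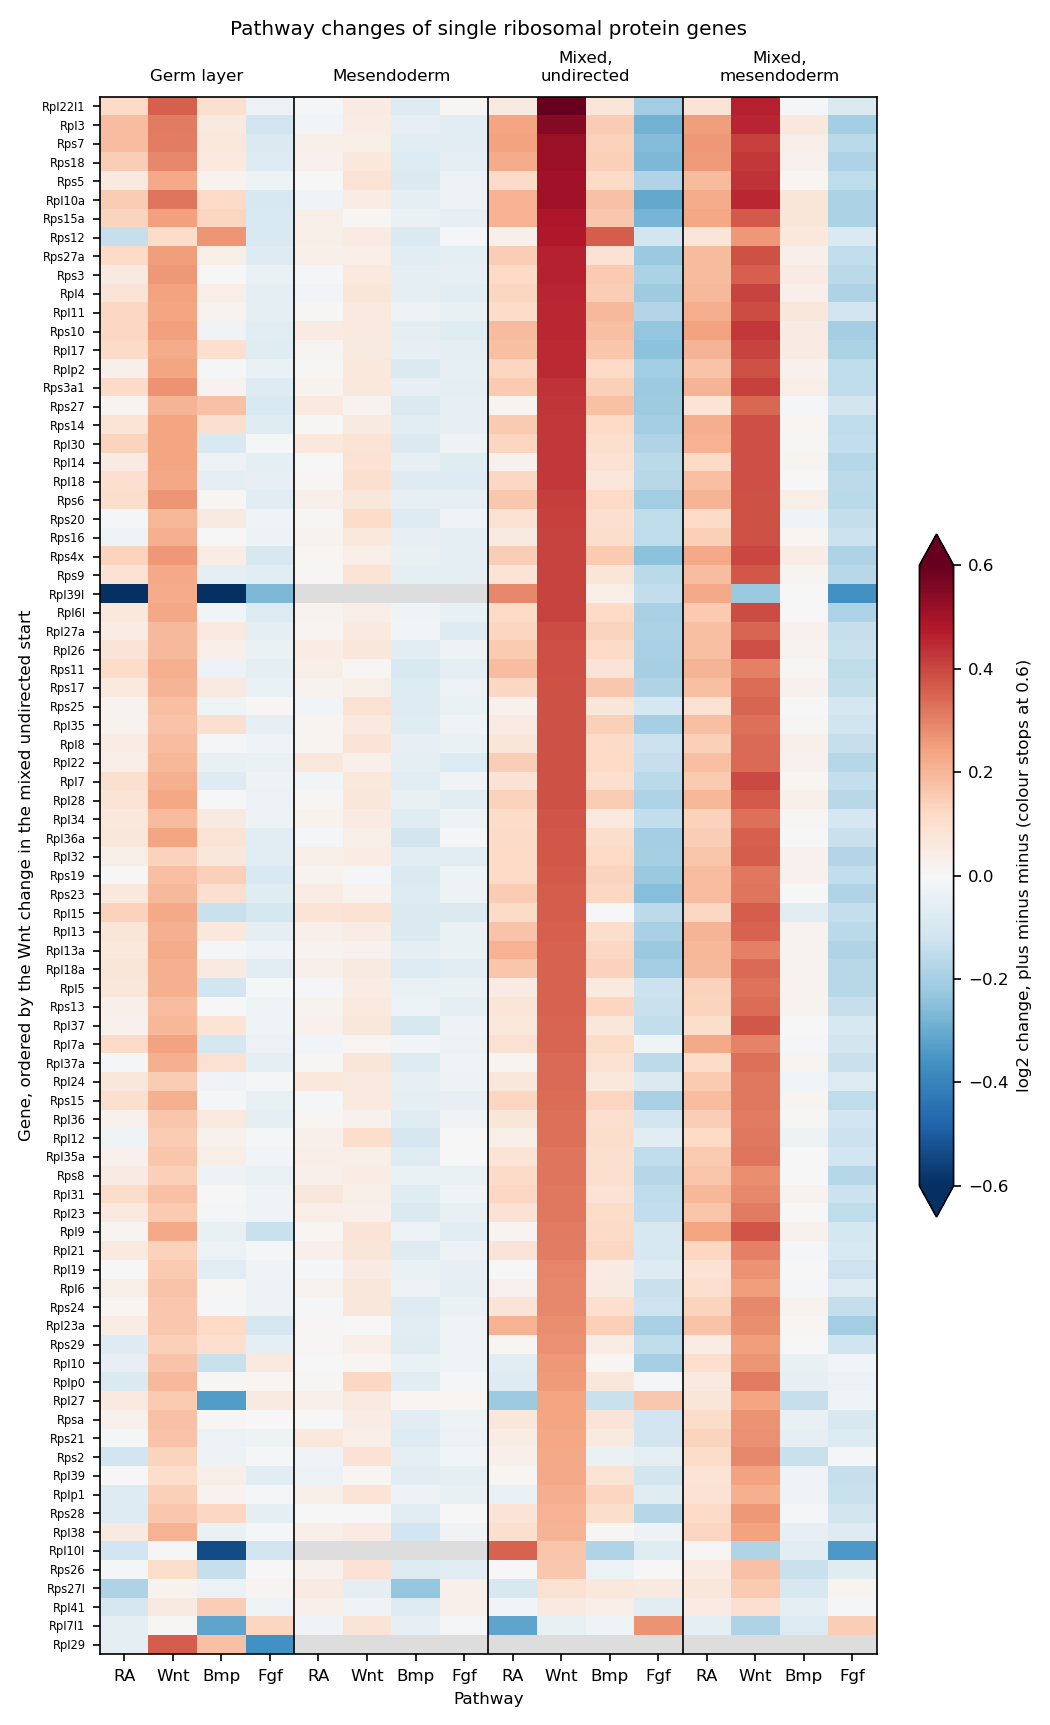
Log2 change (colour) of each member (y axis, ordered by the Wnt change from the undirected start) for 4 pathways in the 4 settings (x axis); grey cells were not tested. Rpl22l1, Rpl3 and Rps7 are at the top, and Rps27l, Rpl41 and Rpl7l1 stand near the bottom.

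Pairs of pathways were examined in fits that added the products of all pairs, an analysis added after the shares of the germ layer conditions were seen. A product gives how much the change of the first pathway differs between plus and minus of the second. With RA and Wnt 18 of 83 members fell and 2 rose in the germ layer experiment (background 1.94% and 1.96%). Rpl10a was at 1849 to 2528 CPM (median 2133) with both minus, 2659 to 3384 (median 2920) with Wnt plus alone, 2485 to 2771 (median 2593) with RA plus alone and 2629 to 3473 (median 2972) with both plus, 8 conditions each. Wnt thus separated the conditions at RA minus, and at RA plus the groups overlapped. Its product was -0.28 ± 0.04 (adjusted p = 5.575e-05), followed by Rpl3 (-0.24 ± 0.04, adjusted p = 0.000204) and Rpl22l1 (-0.22 ± 0.05, adjusted p = 0.004741). Rps27l (0.17 ± 0.04, adjusted p = 0.01804) and Rps26 (0.14 ± 0.04, adjusted p = 0.04393) went the other way.

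With Tgfb and Bmp 41 of 83 fell and none rose (background 1.44% and 1.72%), with a median of -0.12. The share of UMIs had means of 25.3% ± 1.56 (SD, n = 8) with both minus, 26.9% ± 1.70 with Bmp plus alone, 26.2% ± 1.59 with Tgfb plus alone and 26.0% ± 1.44 with both plus. Rpl22l1 had a product of -0.27 ± 0.05 (adjusted p = 0.00051), and its medians were 3305, 3616, 3430 and 3315 CPM in that order. The ranges of the 4 groups overlapped. The other 8 pairs passed edgeR's test for none of the 83 members, with 0 to 11 at an unadjusted p under 0.05. Of all genes 0.17% passed for RA with Tgfb, 3.19% for RA with Bmp, 0.396% for RA with Fgf, 4.05% for Wnt with Bmp, 0.0188% for Tgfb with Fgf, 0.0754% for Bmp with Fgf and 0% for Wnt with Tgfb or Fgf. Among mesendoderm wells the product of RA and Wnt fell for 7 of 80 members and rose for none (background 2.23% and 1.89%), among them Rpl22 (-0.16 ± 0.05, adjusted p = 0.04007), Rps4x (-0.14 ± 0.04, adjusted p = 0.01975) and Rps7 (-0.13 ± 0.04, adjusted p = 0.03311). That of Tgfb and Bmp passed edgeR's test for none (1 at an unadjusted p under 0.05, 0 by DESeq2; 0.601% of genes passed). In the mixed experiment neither product passed for any member in either start, with 0 to 3 members at an unadjusted p under 0.05 and 0 or 1 by DESeq2. Of all genes 3.57% and 2.63% passed for RA with Wnt in the undirected and mesendoderm starts, and 0.148% and 0.262% for Tgfb with Bmp.

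The start state was tested apart from the pathways. In treated wells 57 of 82 members were higher in the mesendoderm start and 3 were lower (background 14.2% and 11.4%), with a median of 0.09. In control wells 23 were higher and none lower (background 4.3% and 4.27%), with a median of 0.17. Rpl22l1 was at 2837 to 4048 CPM (median 3321) in the 8 undirected and 4105 to 4893 (median 4167) in the 8 mesendoderm control wells, a change of 0.36 ± 0.08 (adjusted p = 0.0006473), with no overlap. Rpl10a was at 2290 to 3396 (median 2708) and 3023 to 4139 (median 3426), a change of 0.37 ± 0.09 (adjusted p = 0.003302), and Rpl3 at 2959 to 3815 (median 3182) and 3531 to 4765 (median 4080), a change of 0.35 ± 0.08 (adjusted p = 0.0009167). The wells of these overlapped at the edges. Rpl5 also had no overlap upward, and 2.4% of genes had none in either direction. Summed mesendoderm markers had medians of 35.7 CPM in undirected and 98.3 in mesendoderm control wells, and 40.8 and 114 in treated wells. The fibroblast markers had 7.40 and 15.4, and 8.55 and 17.8. Median cells per well were 35 and 55, and 19.5 and 38. The part of these in the start difference was not tested.

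Rps27l went against the rest between starts. It was at 3609 to 3946 CPM (median 3782) in undirected and 3249 to 3511 (median 3363) in mesendoderm control wells, with no overlap, although the change of -0.16 ± 0.06 did not pass (adjusted p = 0.1072). In treated wells it fell by 0.11 ± 0.02 (adjusted p = 6.241e-05). Rpl39l fell from a median of 30.6 to 15.7 CPM in treated wells, by 0.95 ± 0.14 (adjusted p = 2.242e-08), and Rpl10l by 0.37 ± 0.10 (adjusted p = 0.002526). Both are low members, and their wells overlapped.

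For 63 mixed conditions with 2 wells the share of the pair differed by a median of 1.69 points and at most 5.74. The SD of the condition means, taken over both starts, was 3.21 points. A gap between 2 wells and an SD are unlike measures, so the spreads are given without ranking them.

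Most members rose and fell together across populations. The Spearman correlation of each member with the sum of the other members, for members of at least 100 CPM, had a median of 0.854 over 32 populations (75 members) in the germ layer experiment, 0.615 over 300 wells (80 members) in the mesendoderm experiment and 0.905 over 142 wells (74 members) in the mixed experiment. These correlations share library, depth and the division by total UMIs and are descriptions. Rpl7l1 was the lowest in each (-0.441, -0.24 and -0.657). Rps27l had -0.388, 0.07 and -0.312. The smaller value in the mesendoderm experiment came with wells of fewer UMIs.

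Other genes of the translation machinery fell into groups that did and did not move with the members. Of 17 tested elongation and related factors whose messenger RNAs also carry TOP motifs, 15 rose with Wnt in the germ layer experiment and none fell, with a median of 0.26, where 12.1% of all genes rose. All 17 rose in each start of the mixed experiment, with medians of 0.46 and 0.43, where 16.7% and 19.9% of all genes rose. Pabpc1, the poly(A) binding protein, rose by 0.40 ± 0.02 (adjusted p = 9.778e-17) in the germ layer experiment, and Eef1b2, an exchange factor for elongation factor 1A, by 0.65 ± 0.04 (adjusted p = 6.191e-32) from the undirected start. With Fgf 10 of the 17 fell and 1 rose from the undirected start (6.42% and 6.85% of all genes), with a median of -0.15, and Eef1a1 fell by 0.37 ± 0.05 (adjusted p = 1.693e-08). With Bmp in the germ layer experiment 2 of the 17 rose and 6 fell (21.6% and 21.5% of all genes), with a median of -0.01. In the mesendoderm experiment 10 of 16 rose and 1 fell with Wnt (19.9% and 19.6% of all genes), with a median of 0.09.

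Ribosome biogenesis genes, which make and modify rRNA and assemble subunits, had other directions. Of 36 tested, 4 rose and none fell with Wnt in the germ layer experiment (median 0.07), 13 rose and 1 fell from the undirected start (0.12), and 14 rose and 1 fell from the mesendoderm start (0.12). Of all genes 12.1%, 16.7% and 19.9% rose in these contrasts, so the germ layer share is near that of all genes. With Bmp 32 of 36 fell and none rose in the germ layer experiment (21.5% and 21.6% of all genes), with a median of -0.28. Ncl, the nucleolar protein nucleolin, fell by 0.49 ± 0.04 (adjusted p = 1.335e-11). With RA 30 fell and 2 rose from the undirected start (median -0.36), and 18 fell and 2 rose from the mesendoderm start (-0.17), where 17.5% and 15.6% of all genes fell. Nolc1 fell by 0.72 ± 0.06 (adjusted p = 8.311e-22) in the first. With Fgf 21 rose and 1 fell from the undirected start (median 0.26), where 6.85% of all genes rose. Nhp2, of the particles that turn uridine to pseudouridine, rose there by 0.39 ± 0.05 (adjusted p = 2.893e-10). From the mesendoderm start only 2 of 36 rose with Fgf and 1 fell (median 0.06), where 7.12% and 6.44% of all genes did. Among germ layer conditions 7 rose with Fgf and 0 fell (median 0.09), where 4.58% and 3.35% did. In the mesendoderm experiment 24 were tested, and their medians had the sign of the members' medians for RA, Wnt, Bmp and Fgf. The signs were opposite for Tgfb (-0.033, members 0.002), Notch (0.007, members -0.010) and Shh (0.02, members -0.002). With RA 2 rose and 1 fell (median 0.014, members 0.019; 11.6% and 10.3% of all genes). With Fgf 0 passed (median -0.001, members -0.039), where 3.78% of all genes rose and 5.5% fell. With Wnt 10 rose and 1 fell (median 0.11, members 0.05), where 19.9% and 19.6% did.

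Initiation factors were mixed. With Wnt 9 of 26 rose and 2 fell in the germ layer experiment (12.1% and 11.9% of all genes). With Bmp 1 rose and 14 fell there (21.6% and 21.5%), and with RA none of 25 rose and 13 fell from the undirected start (16.9% and 17.5%). Among regulators of growth and of TOP messenger RNAs, 5 of 11 fell with Wnt in the germ layer experiment, 7 of 10 from the undirected start and 6 of 10 from the mesendoderm start, and none rose, where 11.9%, 19.4% and 21.2% of all genes fell. Mycn, a Myc family factor, fell with Wnt by 0.66 ± 0.11 (adjusted p = 2.317e-05), 0.94 ± 0.12 (adjusted p = 4.29e-11) and 0.86 ± 0.10 (adjusted p = 2.225e-14). With RA it fell by 2.00 ± 0.12 from the undirected start (adjusted p = 1.284e-33).

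**Figure D4:**
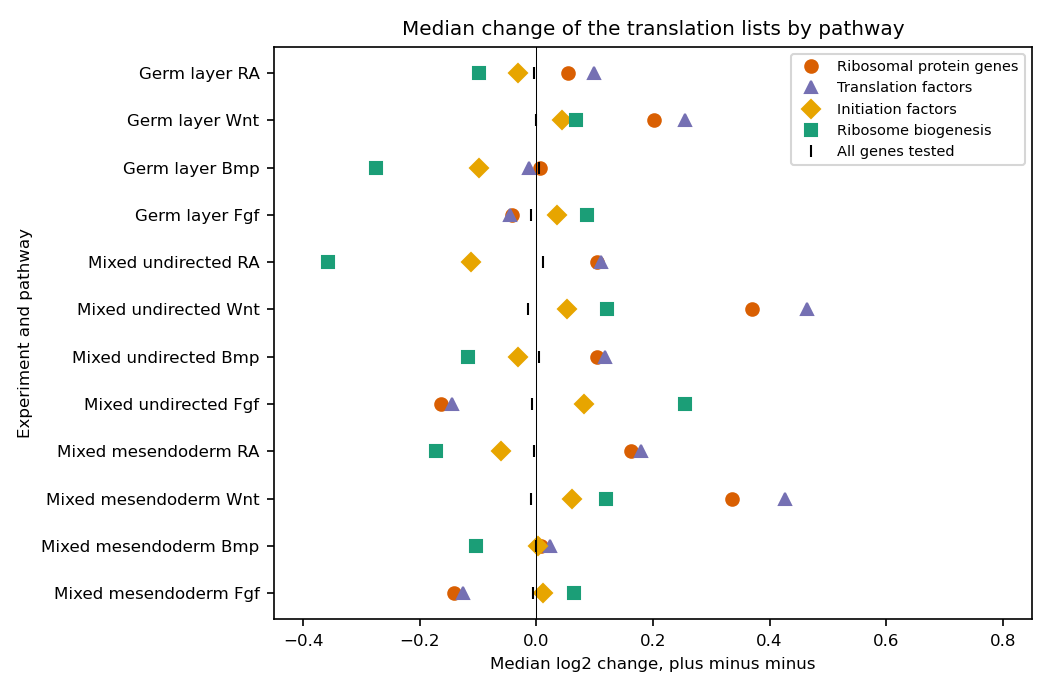
Median log2 change (x axis) of ribosomal protein genes and of 3 other translation lists, and of all genes tested, for 4 pathways in the germ layer and mixed experiments (y axis). Ribosomal protein genes and translation factors lie close together, and ribosome biogenesis lies on the other side of 0 for RA, Bmp and Fgf. For Bmp the ribosomal protein genes lie near 0 in the germ layer experiment and the mesendoderm start. The mesendoderm experiment is not drawn, and there ribosome biogenesis lay on the same side of 0 as the members for RA, Bmp and Fgf.

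Some members had very different levels in the 3 libraries, as CPM over all UMIs. Rps12 averaged 8.45 CPM (germ layer), 3200 (mesendoderm) and 16.4 (mixed), and Rps2 46.5, 3252 and 69.0. Rps27 was at 194, 3975 and 58.5, and Rpl10 at 39.1, 1976 and 55.5. With Rpl27, Rpl9, Rpl23a and Rpl7a these were the 8 members at least 5-fold higher in the mesendoderm library than in both others, 8 of 80 members of at least 100 CPM there (10%) against 5 of 1251 other genes (0.4%). Together they took 1.82% of mesendoderm UMIs, 0.084% of germ layer UMIs and 0.073% of mixed UMIs. The other 76 members took 31.8%, 26.0% and 32.3%.

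**Figure D5:**
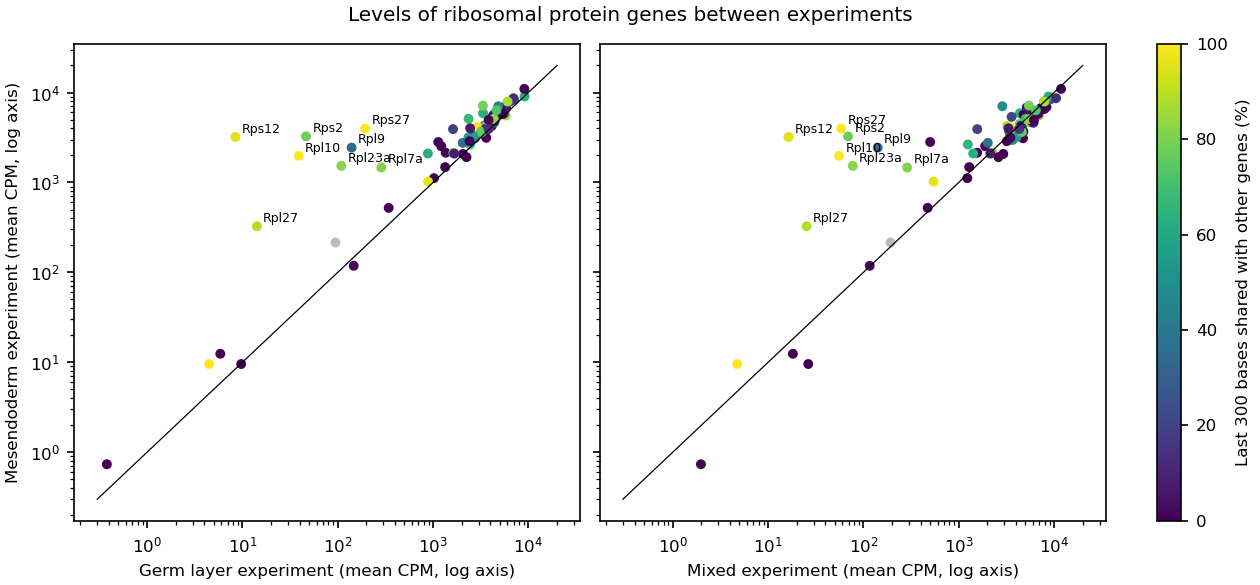
Mean CPM of each member in the mesendoderm experiment (y axis, log) against the germ layer and mixed experiments (x axes, log), coloured by the percent of its last 300 bases found in other genes (grey, no value); the line marks equal levels. The 8 named members lie far above the line, and most of them are shared over much of their 3′ end.

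Reads of these genes can also match near-identical copies. The 3′ ends (the last 300 bases) of the 8 members were shared with other annotated genes over a median of 85.3% of their 50-base stretches, and those of the remaining members over a median of 18.7%. Sharing was also as high as the least shared of the 8 (33.9%) in 32 of the remaining members, which did not have such a gap. Of 83 members with a value 55 shared at least 1 such stretch and 28 none, 38 overlapped an exon of another gene, and 30 held snoRNA genes. How reads with several matches were counted, and whether it was alike in the 3 libraries, no source used here gives, and its part in these levels was not tested. Counts of members with shared 3′ ends, among them Rpl3, Rpl10a, Rpl22l1 and Rps18, are uncertain for this reason. Rplp0, Rpsa, Rpl5, Rpl11, Rpl22 and Rps27l shared none.

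The lowest members were Rpl3l, a heart and muscle paralogue of Rpl3, with 27, 27 and 188 UMIs in the 3 experiments, Rpl29 with 319, 364 and 481, Rpl10l with 408, 433 and 1816, and Rpl39l with 628, 347 and 2361. Filters on low counts left out Rpl3l in all, Rpl29 in the mesendoderm and mixed experiments, and Rpl10l and Rpl39l in the mesendoderm experiment.

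Bulk libraries were made with QuantSeq, which reads 3′ ends, and all 84 genes are in the bulk table. The share of reads was 23.9% and 24.2% in the libraries labelled Barcodelet24h, 25.4% and 27.3% in those labelled Barcodelet72h, and 20.2% and 25.1% in untransfected cells. In populations sorted by flow cytometry for a GFP reporter it was lower, 9.13% and 7.10% for Foxa2GFPminus, 9.61%, 6.29% and 4.48% for Foxa2GFPplus, and 9.78% and 5.44% for Tdgf1GFPplus. Foxa2GFPplus replicate 2 was not analysed here. Gm42418, an annotated gene that overlaps rRNA sequence, took 15.7% to 42.6% of the reads of sorted and 2.63% to 10.6% of those of the other libraries, and without it the shares were 5.49% to 13.1% and 22.6% to 28.6%. Its reads, sorting and cell state cannot be told apart as parts of this difference, and no test was made. Rps12 was at 930 to 10424 CPM over the 13 bulk libraries, and Rpl10 at 23.0 to 192.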

How the data were processed

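Single-cell values are raw UMI counts per gene and cell, as deposited by the authors, and bulk values are raw read counts per gene, as deposited. Cell Ranger 1.3.1, STAR 2.5.2b, HTSeq 0.9.1 and mm10 appear in the submitters' processing notes, with no role or order; whether counting used the strand is not stated in any source used here. Cells kept the populations of the authors' files, and no doublet caller was run. UMIs of passing cells were summed per population (at least 5 cells), and pathway levels were coded 0.5 and -0.5.

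edgeR 4.0.16 (R 4.3.3) fitted all genes per experiment: filterByExpr, TMM scaling and the quasi-likelihood F test, with Benjamini-Hochberg adjustment over all genes per contrast and a threshold of 0.05. The fit was tested on simulated counts. The SE printed beside a change is the absolute log2 change divided by the square root of F, and not a separate output of the fit. Germ layer conditions have 1 population each, so their spread is that of the residuals of the additive model. CPM beside a test is scaled by TMM over the tested genes, which puts mesendoderm values above those over all UMIs.

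The member rule uses symbols only, but the gene group and the lists were chosen with earlier results of these data known. Named members are those with an adjusted p under 0.05, at least 10 CPM and the largest changes (5 each way in the germ layer and start contrasts, 3 elsewhere), with the paralogues, the stalk and Rpsa, Rpl5, Rpl11, Rpl38 and Rps6; of other lists, the smallest adjusted p. Alternatives were other scalings, DESeq2 1.42.0, no filter, a depth term, wells of at least 10 cells, a replicate block and pairwise products. Coordinates are 1-based.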

Additional observations from a re-analysis of the deposited data

Results flagged for a closer look

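In the mixed experiment 2 members had RA changes that differed between the start states by the test of the difference itself in edgeR. For Rps27l the RA change from the mesendoderm start minus that from the undirected start was 0.161 ± 0.046 on the log2 scale (SE, adjusted p = 0.02045), with -0.09 ± 0.03 from the undirected and 0.07 ± 0.03 from the mesendoderm start. For Rpl7l1 it was 0.26 ± 0.08 (adjusted p = 0.03132), with -0.32 ± 0.06 and -0.06 ± 0.05. Of 8791 genes 2.45% passed this test upward and 3.23% downward, so 2 of 82 members upward is near the share of all genes. The count of such members was 1 to 4 over the alternatives. No single well stood apart in the 22 sets of control well values examined for one, where chance gives about 1 in 20.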

How the results depend on the processing

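Counts of members that rose with Wnt in the germ layer and mixed experiments stayed within 1.5 times under every alternative run, as did 446 of 505 counts in all and 48 of 48 shares. Where a count changed by more, the cause was not tested. Germ layer members that fell with Fgf (6) were 17 with library totals, 19 scaled without the members, 0 with no filter and 30 with pairwise products. With a depth term 1 rose with Tgfb (2) and 13 with Bmp (22). In the mesendoderm experiment, members that rose with RA (5) were 14 with library totals, 11 by DESeq2, 2 with no filter and 3 in wells of at least 10 cells, which left 5 for Wnt (49). Members that fell with Bmp (63) were 38, 17 and 2 with totals, no filter and those wells. For Fgf (23) they were 11 with totals, 11 scaled without the members, and 0 with no filter or those wells, and with no filter 5 rose where none had, so the called direction turned. For Tgfb (1) they were 0 with no filter or those wells. For the product of RA and Wnt (7) they were 3 with totals, 4 scaled without the members, and 0 with no filter or those wells. In the mixed experiment, members whose RA change was higher from the mesendoderm start (2) were 1 with totals or no filter and 4 in wells of at least 10 cells or with the replicate block. Members higher in mesendoderm control wells (23) were 37 scaled without the members. With no filter 25 rose with Bmp from the undirected start (40) and 39 fell with Fgf from the mesendoderm start (64). Of the smaller counts, germ layer members that fell with RA (7) were 4 scaled without the members, 4 with no filter and 2 with a depth term, and those that fell with Bmp (13) were 8 with no filter. Undirected members that fell with RA (3) were 1 scaled without the members, by DESeq2 or with a depth term, and the 1 mesendoderm member that fell with Wnt was lost scaled without the members, with no filter, with a depth term and in wells of at least 10 cells. The undirected product of RA and Wnt (0) rose in 1 by DESeq2 and in 2 with the replicate block.

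Of 5458 values of single members 4 turned direction: with no filter Rpl39 and Rplp0 had 0.025 and 0.069 with Fgf in the mesendoderm experiment, Rpl39 had 0.003 in wells of at least 10 cells, and Rps27l had -0.049 with Wnt from the undirected start with library totals. A further 167 lost and 79 gained the call.

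Wells share only a number. Deviations of same-numbered wells had a mean correlation of -0.0004 (other pairs 0.0002) over 278 mesendoderm wells and 0.0293 (-0.0293) over 142 mixed wells, where the block was wells with or without external barcodelets. The replicate block moved no other count with a call beyond 1.5 times. No paired analysis was possible for the germ layer experiment because each condition has 1 population. Mesendoderm wells held the fewest UMIs, 27701 to 332644 each.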
